A study of Mus musculus with 12 samples.

Results

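The 10 genes described here encode the signalling route by which leukemia inhibitory factor (LIF), oncostatin M (OSM) and interleukin 6 (IL6) activate the transcription factor STAT3. They were chosen by name and role, with earlier results of these data known. The ligands are Lif, Osm and Il6, and the receptor chains are Lifr, Osmr, Il6ra and Il6st. The others are the transcription factor Stat3 and the STAT3 target genes Socs3 and Bcl3. All 10 were found among the 37756 gene models of the table, and 8 of them passed the filter on low values with which 14512 gene models were tested. Osm and Il6 did not pass and are described by their levels.

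In the mammary gland, LIF is known to activate STAT3 soon after weaning, when milk stays in the alveoli. IL6-type cytokines bind a chain of their own or a shared one (LIFR, OSMR or IL6RA) and signal through GP130, the protein encoded by Il6st, which brings JAK kinases to the membrane. JAK1 phosphorylates STAT3, and STAT3 switches on genes that include Socs3, whose product blocks GP130 signalling, and Bcl3, whose product binds the p50 and p52 subunits of NF-kB. STAT3 is required for efficient involution, the return of the lactating gland to its resting state.

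RNA from pieces of whole mammary gland of C57BL/6 mice was sequenced in 4 groups of 3 libraries. Each library came from a mouse of its own, as the study describes. JNK-KO glands on involution day 3 and JNK-WT glands on day 3 were taken after forced weaning, and JNK-KO glands and JNK-WT glands on day 0 were taken when weaning began. JNK-KO mice, labelled JNK-/-, carried Wap-Cre-/+ with Mapk8 LoxP/LoxP and Mapk9 LoxP/LoxP, and JNK-WT mice, labelled wild type, carried Wap-Cre-/+ alone, so that both genotypes had the recombinase. The Wap promoter drives Cre in the secretory epithelium of the lactating gland, and other cells of the gland keep Mapk8 and Mapk9, which encode JNK1 and JNK2. The dams were adults that had nursed a litter until forced weaning, and their exact age on the day of sampling is not given in the sources used here. Levels are given in FPKM, fragments per kilobase of transcript scaled to the mapped fragments of the library, and libraries are called by the numbers of their columns. In whole glands, fewer cells of a type and less RNA per cell cannot be told apart.

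Mapk8 was at 1.25 to 3.57 FPKM in JNK-KO libraries of day 3 against 6.57 to 7.90 FPKM in JNK-WT libraries of day 3. Its log2 difference was -1.60 (adjusted p = 0.0510 by limma). Mapk9 was at 5.26 to 10.5 FPKM in JNK-KO and 16.1 to 18.1 FPKM in JNK-WT libraries of day 3 (log2 difference -1.06, adjusted p = 0.199 by limma). On day 0 Mapk8 was at 0.965, 0.986 and 2.78 FPKM in JNK-KO libraries against 1.95 to 2.65 FPKM in JNK-WT libraries, so the library labelled JNK-KO day 0 library 3 went against its label at this gene. Mapk9 on day 0 was at 4.86, 4.33 and 8.78 FPKM in JNK-KO libraries 1, 2 and 3, against 2.48, 9.04 and 10.2 FPKM in JNK-WT libraries 1, 2 and 3. The library labelled JNK-KO day 0 library 3 was thus also the highest of its group in Mapk9, and the library labelled JNK-WT day 0 library 1 went against its label at Mapk9, with less than any JNK-KO library of that day. The library labelled JNK-WT day 0 library 1 also stood apart from the other libraries of its group. Its correlations with them across genes were 0.861 and 0.851, while theirs was 0.950, and 8641 of its gene models reached 0.5 FPKM against 10420 and 10752 in the other 2. The FPKM of most genes shifted with time. The median log2 change on day 3 over all genes tested was 1.68 in JNK-KO glands and 2.37 in JNK-WT glands, while the summed FPKM of the milk protein genes was 209778 to 431157 in JNK-KO and 32853 to 100376 in JNK-WT libraries of day 3 and 630993 to 705205 on day 0. A change is therefore also given after median ratio scaling, in which a library is divided by the median, over genes, of its FPKM relative to their geometric mean over the 12 libraries, and which brings the median changes to 0.04 and 0.06. Which of both scales is nearer to RNA per cell was not tested.

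Lif was nearly absent on day 0 and present in every gland on day 3. Its level was 2.72, 5.23 and 2.70 FPKM in JNK-KO glands of day 3, against 0.0255, 0.00741 and 0 FPKM in JNK-KO glands of day 0. In JNK-WT glands it was 2.03, 1.82 and 3.83 FPKM on day 3, against 0, 0.0236 and 0.0169 FPKM on day 0. No library of day 3 overlapped one of day 0 in either genotype, which held for 8 of the 10 genes in JNK-KO glands, where 84% of all genes tested were higher without overlap, and for 9 of the 10 in JNK-WT glands, where 90.6% were. On the log2(FPKM + 0.1) scale Lif rose by 4.98 (standard error, SE, 0.37, adjusted p = 4.03e-06) in JNK-KO glands and by 4.48 (SE 0.37, adjusted p = 2.16e-06) in JNK-WT glands, by limma, with p adjusted by the Benjamini-Hochberg method over the 14512 genes. These sizes depend on the constant added to FPKM, because the day 0 levels lie under it: over all alternatives they ran from 2.12 to 7.53 in JNK-KO and from 1.77 to 6.87 in JNK-WT glands, and the call held in each. After median ratio scaling Lif still rose, by 4.07 in JNK-KO glands (adjusted p = 3.95e-05 by limma) and by 3.10 in JNK-WT glands (adjusted p = 0.000104 by limma).

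The other ligands stayed low. Osm, which encodes a cytokine made largely by myeloid cells, was at 0.201, 0.303 and 0.477 FPKM in JNK-KO glands of day 3, against 0, 0.0106 and 0 FPKM in JNK-KO glands of day 0. In JNK-WT glands it was at 0.523, 0.323 and 1.23 FPKM on day 3 and was listed at 0 in all 3 libraries of day 0. Every library of day 3 held more Osm than any library of day 0, but only 2 of the 12 reached 0.5 FPKM, so Osm was not tested and no fold is given. Il6 was at 0.146, 0 and 0.0605 FPKM in JNK-KO glands of day 3, against 0 FPKM in the 3 JNK-KO libraries of day 0. In JNK-WT glands it was at 0.0304, 0 and 0.216 FPKM on day 3, against 0.0631, 0 and 0 FPKM on day 0. None of the 12 libraries reached 0.5 FPKM of Il6, and its levels overlapped between the days in both genotypes. Of these 3 ligands, Lif thus had the highest level on day 3 in each of the 6 glands.

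**Figure D1:**
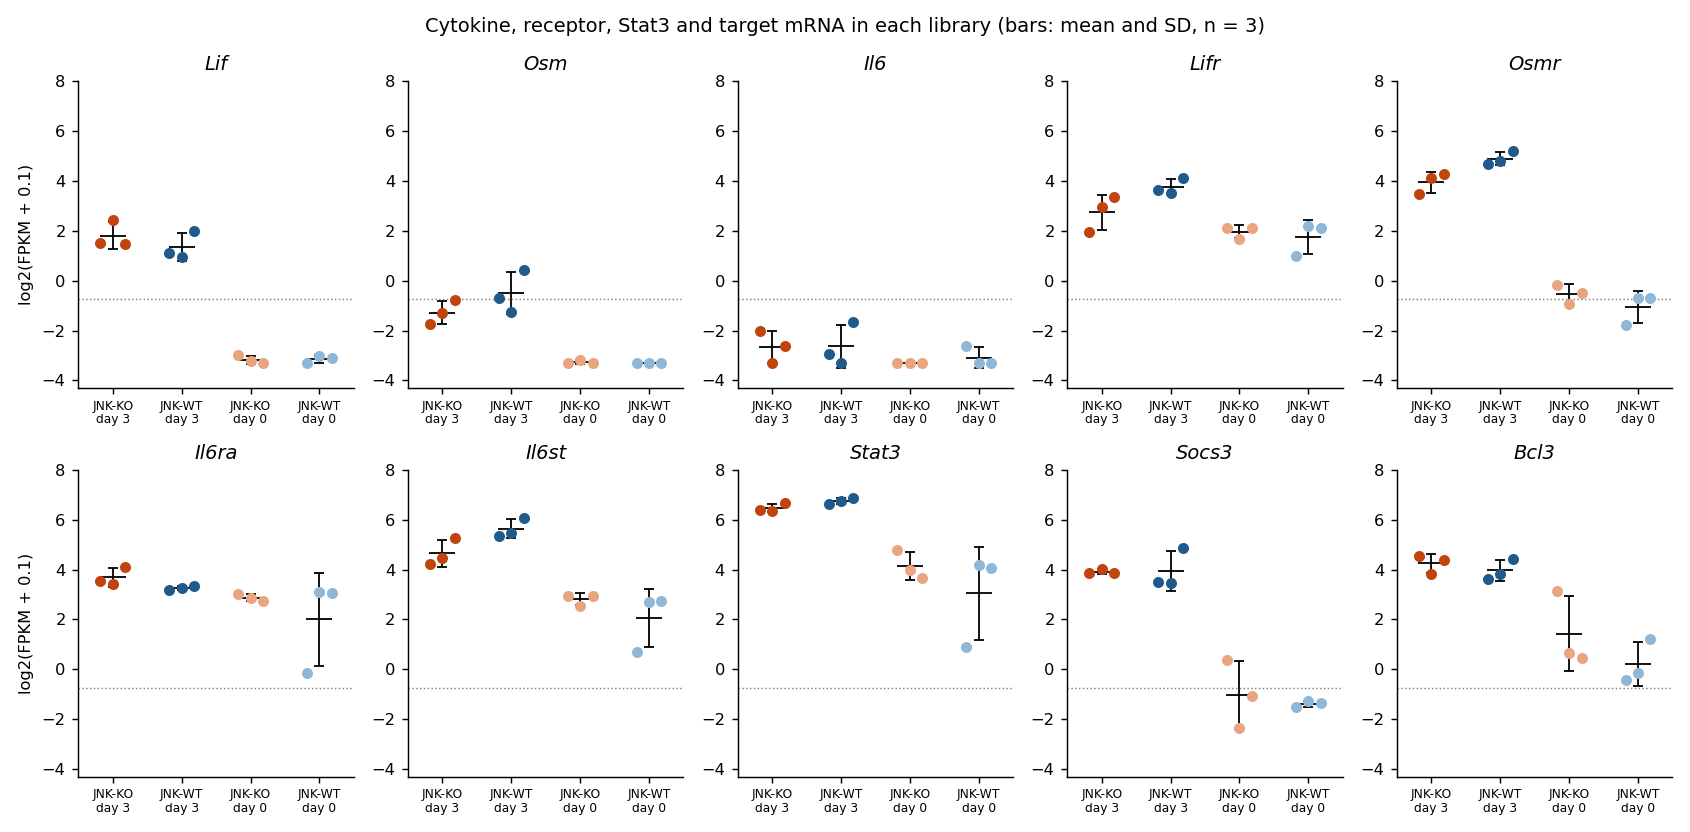
Level of each gene in each library as log2(FPKM + 0.1), with points for the 3 libraries of a group, in column order from left to right, and bars for mean and SD. The dotted line marks 0.5 FPKM. All genes but Lifr and Il6 were higher in every library of day 3 than in any of day 0. Within a genotype, 84% of all genes tested in JNK-KO and 90.6% in JNK-WT glands were higher on day 3 without overlap. Il6 stayed below the line in all 12, and library 1 of JNK-WT day 0 was the lowest of its group for all genes but Osm and Il6.

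The receptor chains did not move alike. Osmr, the signalling chain for OSM that pairs with GP130, had 11.0, 16.995 and 19.0 FPKM in JNK-KO glands of day 3, against 0.785, 0.421 and 0.607 FPKM in JNK-KO glands of day 0. JNK-WT glands had 25.6, 27.7 and 36.5 FPKM on day 3, against 0.188, 0.524 and 0.518 FPKM on day 0. Within each genotype, the lowest library of day 3 lay above the highest of day 0 by more than the whole spread of either day. Osmr rose by 4.48 (SE 0.36, adjusted p = 5.95e-06) in JNK-KO and by 5.95 (SE 0.36, adjusted p = 1.16e-06) in JNK-WT glands on the log2 scale by limma, and after median ratio scaling by 2.82 (adjusted p = 4.12e-05) and 3.65 (adjusted p = 5.17e-06). Its change ranked at percentile 99.1 of all genes tested in JNK-KO and 99.5 in JNK-WT glands.

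Il6st, the shared GP130 chain, had 18.7, 22.1 and 38.5 FPKM in JNK-KO glands of day 3, against 7.64, 5.77 and 7.61 FPKM in JNK-KO glands of day 0. Its level in JNK-WT glands was 41.0, 43.7 and 66.8 FPKM on day 3, against 1.53, 6.39 and 6.66 FPKM on day 0. It rose by 1.84 (SE 0.49, adjusted p = 0.00444) in JNK-KO and by 3.57 (SE 0.49, adjusted p = 2.75e-05) in JNK-WT glands as deposited, by limma. After median ratio scaling it rose in JNK-WT glands by 1.10 (adjusted p = 0.0263 by limma), or by 0.67 without the library labelled JNK-WT day 0 library 1, an alternative chosen after seeing the data (adjusted p = 0.0291 by limma), and in JNK-KO glands its change was 0.08, with a 95% interval from -0.66 to 0.81 (adjusted p = 0.901).

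Lifr, the chain that binds LIF, had 3.81, 7.57 and 9.97 FPKM in JNK-KO glands of day 3, against 4.18, 3.12 and 4.25 FPKM in JNK-KO glands of day 0, and the days overlapped. JNK-WT glands had 12.4, 11.5 and 17.3 FPKM on day 3, against 1.87, 4.48 and 4.19 FPKM on day 0, with no overlap. The log2 change was 0.78 (95% interval -0.10 to 1.65, adjusted p = 0.0899) in JNK-KO glands, and Lifr rose by 2.01 (SE 0.40, adjusted p = 0.000457) in JNK-WT glands, by limma. The direction turned with the scale: after median ratio scaling Lifr fell by 0.97 in JNK-KO glands (adjusted p = 0.0165 by limma), and the change in JNK-WT glands was -0.46 (95% interval -0.99 to 0.08, adjusted p = 0.167). Leaving out JNK-KO day 3 library 3 or the library labelled JNK-WT day 0 library 1 called the deposited change in JNK-KO glands, at 1.17 (adjusted p = 0.0161 by limma) and 0.78 (adjusted p = 0.0360 by limma).

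Il6ra, the chain that binds IL6, had 11.6, 10.5 and 16.97 FPKM in JNK-KO glands of day 3, against 7.93, 7.24 and 6.58 FPKM in JNK-KO glands of day 0. The JNK-WT level was 9.05, 9.35 and 10.1 FPKM on day 3, against 0.804, 8.51 and 8.19 FPKM on day 0, and library 1 alone made the low end of that group. Neither change passed the test as deposited: the log2 change was 0.81 (95% interval -0.63 to 2.25, adjusted p = 0.265) in JNK-KO and 1.26 (95% interval -0.18 to 2.70, adjusted p = 0.0858) in JNK-WT glands, by limma. Without library 1 the change in JNK-WT glands was 0.19 (adjusted p = 0.410 by limma), and that in JNK-KO glands, at 0.81, was called (adjusted p = 0.00194 by limma), as its standard error was 0.19 in place of 0.66. In that fit 85.9% of all genes were called higher in JNK-KO glands. Without JNK-WT day 0 library 2 or 3 the change in JNK-WT glands was 1.81 and 1.78 (adjusted p = 0.0239 and 0.0266 by limma). After median ratio scaling the change was -0.95 in JNK-KO (adjusted p = 0.243) and -1.18 in JNK-WT glands (adjusted p = 0.113), and neither was called by limma. With library 1 left out as well, Il6ra fell by 0.95 in JNK-KO (adjusted p = 0.00193 by limma) and by 2.02 in JNK-WT glands (adjusted p = 4.65e-05 by limma), beside 19.8% and 23.1% of all genes called lower. The antisense gene Gm42809 overlaps Il6ra, and since strand-specific counting is not stated in the sources used here, their reads cannot be told apart.

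Ratios of 2 genes within a library do not move with the scaling of that library, and 6 such ratios, chosen after the values were seen, were compared. Osmr had 2.90, 2.25 and 1.91 times the FPKM of Lifr in JNK-KO glands of day 3, against 0.188, 0.135 and 0.143 times in JNK-KO glands of day 0. In JNK-WT glands the ratio was 2.06, 2.42 and 2.11 on day 3, against 0.101, 0.117 and 0.124 on day 0. Osmr was thus the lower of both chains in every gland of day 0 and the higher in every gland of day 3, and the mean log2 ratio differed between the days by 3.92 in JNK-KO and 4.27 in JNK-WT glands. The exact two-sided permutation test gave p = 0.1 for each, the smallest that 3 against 3 libraries can give (0.2 after Benjamini-Hochberg adjustment over the 24 comparisons of ratios). As the ratio combines 2 levels already seen to change unlike each other, this test adds nothing to them. Between the genotypes on day 3 the ratios of Osmr to Lifr overlapped (difference of the mean log2 ratio 0.08, exact permutation p = 0.8).

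The ratio of Il6ra to Il6st is given as a description, since it combines 2 levels already seen to lie apart between the genotypes on day 3. It was 0.618, 0.475 and 0.441 in JNK-KO glands of day 3 and 0.221, 0.214 and 0.152 in JNK-WT glands of day 3, a difference of 1.39 in the mean log2 ratio with no overlap. On day 0 it ranged from 0.864 to 1.25 in JNK-KO and from 0.525 to 1.33 in JNK-WT glands and overlapped. The other 5 ratios overlapped between the genotypes on day 3, while on day 0 those of Osmr to Lifr (higher in JNK-KO glands) and of Lifr to Il6st (lower in JNK-KO glands) did not overlap. In all, 12 of the 24 comparisons of ratios had no overlap. The summed FPKM of the macrophage markers, of which 8 of 9 were tested, was 247 to 634 in JNK-KO and 685 to 1629 in JNK-WT libraries of day 3. That of the adipocyte markers was 986 to 3224 and 3282 to 7200, and that of the luminal epithelial markers 1036 to 1672 and 1128 to 1202. After scaling the macrophage sums (176 to 319 and 283 to 580) and the adipocyte sums (704 to 1672 and 1393 to 2563) overlapped. The scaled luminal sums did not, and were higher in JNK-KO libraries, at 537 to 972 against 403 to 510. As deposited, the skeletal muscle markers differed most, with a sum of 1.57 to 100.4 FPKM in JNK-KO and 402 to 6505 FPKM in JNK-WT libraries of day 3. All 5 tested members were called lower in JNK-KO glands as deposited (median log2 difference -8.50), beside 5.62% of all genes. After scaling none was called, as 0.455% of all genes were, while the sums still lay apart, at 0.815 to 48.5 FPKM in JNK-KO and 143 to 2762 FPKM in JNK-WT libraries. The part of these markers in the receptor levels and ratios was not tested.

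**Figure D2:**
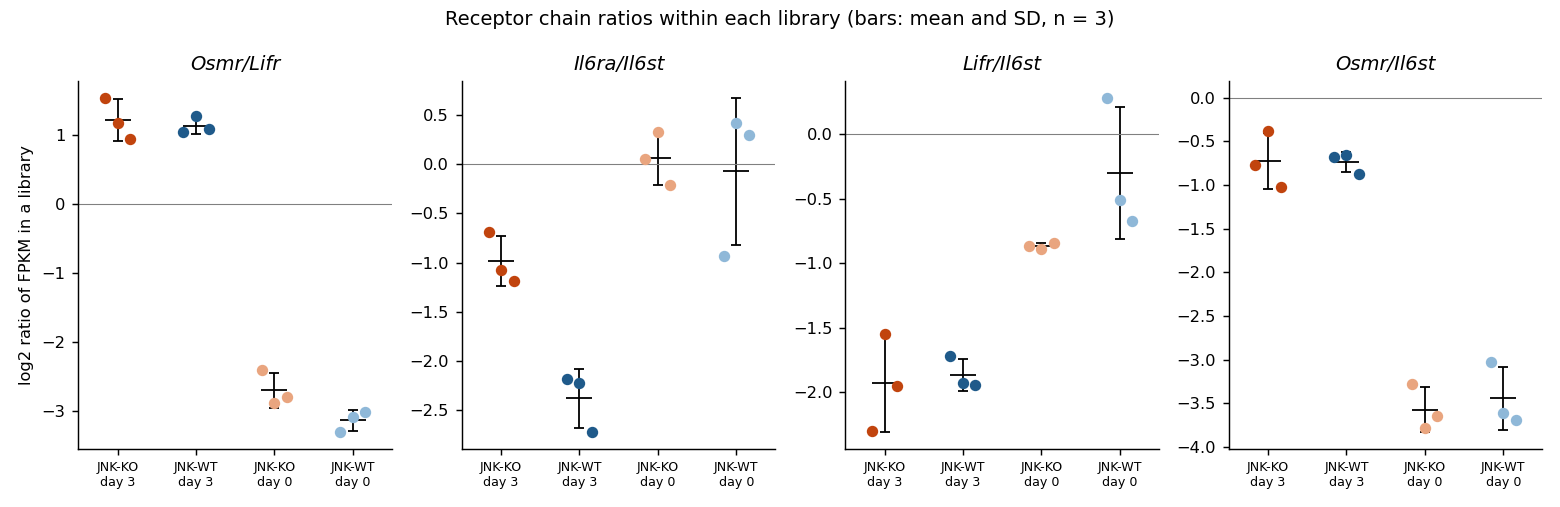
Log2 ratio of the FPKM of 2 receptor chains within each library, by group, with bars for mean and SD over 3 libraries. Osmr lay below Lifr in all 6 libraries of day 0 and above it in all 6 of day 3, and the ratio of Il6ra to Il6st was higher in JNK-KO (0.441 to 0.618) than in JNK-WT glands (0.152 to 0.221) of day 3.

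Stat3 had the highest level of the 10 genes in every library of day 3 and stood at 84.0, 80.7 and 100.2 FPKM in JNK-KO glands of day 3, against 27.3, 15.8 and 12.5 FPKM in JNK-KO glands of day 0. JNK-WT glands had 98.9, 108.4 and 116.8 FPKM on day 3, against 1.74, 18.05 and 16.6 FPKM on day 0. As deposited it rose by 2.32 (SE 0.68, adjusted p = 0.00778) in JNK-KO and by 3.71 (SE 0.68, adjusted p = 0.000237) in JNK-WT glands, by limma. The library labelled JNK-WT day 0 library 1 decided the size in JNK-WT glands, since without it the rise was 2.63 (adjusted p = 6.60e-06 by limma). Neither call held after median ratio scaling, where the change was 0.54 (95% interval -0.70 to 1.78, adjusted p = 0.539) in JNK-KO and 1.23 (95% interval -0.01 to 2.47, adjusted p = 0.113) in JNK-WT glands, by limma. Without library 1 the scaled change in JNK-WT glands was 0.40 (adjusted p = 0.263 by limma). The deposited model of Stat3, chromosome 11 from 100859351 to 100939540 of GRCm38, also spans the neighbouring gene Stat5a on the other strand, which has FPKM values of its own.

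Socs3, the feedback inhibitor, was at 14.6, 16.1 and 14.4 FPKM in JNK-KO glands of day 3, against 1.20, 0.0965 and 0.372 FPKM in JNK-KO glands of day 0. In JNK-WT glands it was at 11.1, 10.9 and 29.1 FPKM on day 3, against 0.247, 0.315 and 0.288 FPKM on day 0. The 3 JNK-KO libraries of day 3 lay within the range of the JNK-WT libraries, of which library 12 was more than 2 times as high as the other 2. Socs3 rose on both scales, and after median ratio scaling the rise was 3.37 (SE 0.60, adjusted p = 0.00285) in JNK-KO and 3.06 (SE 0.60, adjusted p = 0.00305) in JNK-WT glands, by limma. With the 23 alternatives the smallest rise was 3.37 in JNK-KO and 3.06 in JNK-WT glands, and each was called. Relative to Stat3 in the same library, Socs3 was at 0.173, 0.199 and 0.143 in JNK-KO glands of day 3, against 0.0440, 0.00611 and 0.0298 in JNK-KO glands of day 0, with no overlap. In JNK-WT glands that ratio was 0.112, 0.101 and 0.249 on day 3, against 0.142, 0.0174 and 0.0173 on day 0, and overlapped only through library 1 of day 0, whose Stat3 level was low (difference of the mean log2 ratio 2.01, exact permutation p = 0.3).

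Bcl3 was at 23.1, 13.98 and 21.0 FPKM in JNK-KO glands of day 3, against 8.83, 1.48 and 1.28 FPKM in JNK-KO glands of day 0. JNK-WT glands held 12.2, 14.2 and 21.5 FPKM on day 3, against 0.647, 0.796 and 2.23 FPKM on day 0. As deposited it rose by 2.82 (SE 0.64, adjusted p = 0.00172) in JNK-KO and by 3.75 (SE 0.64, adjusted p = 0.000142) in JNK-WT glands, and after median ratio scaling the changes were 1.08 (95% interval -0.27 to 2.43, adjusted p = 0.242) and 1.34 (95% interval -0.01 to 2.69, adjusted p = 0.112), by limma. JNK-KO day 0 library 1 held the most Bcl3, Socs3 and Stat3 of the 6 libraries of that day. The same library had 4.74 FPKM of S100a8 against 0.0886 to 0.458 FPKM in the JNK-WT libraries of day 0, and the part of that in its levels was not tested. The antisense genes Gm16174 and Gm16175 overlap Bcl3, so reads of these models cannot be told apart without strand.

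**Figure D3:**
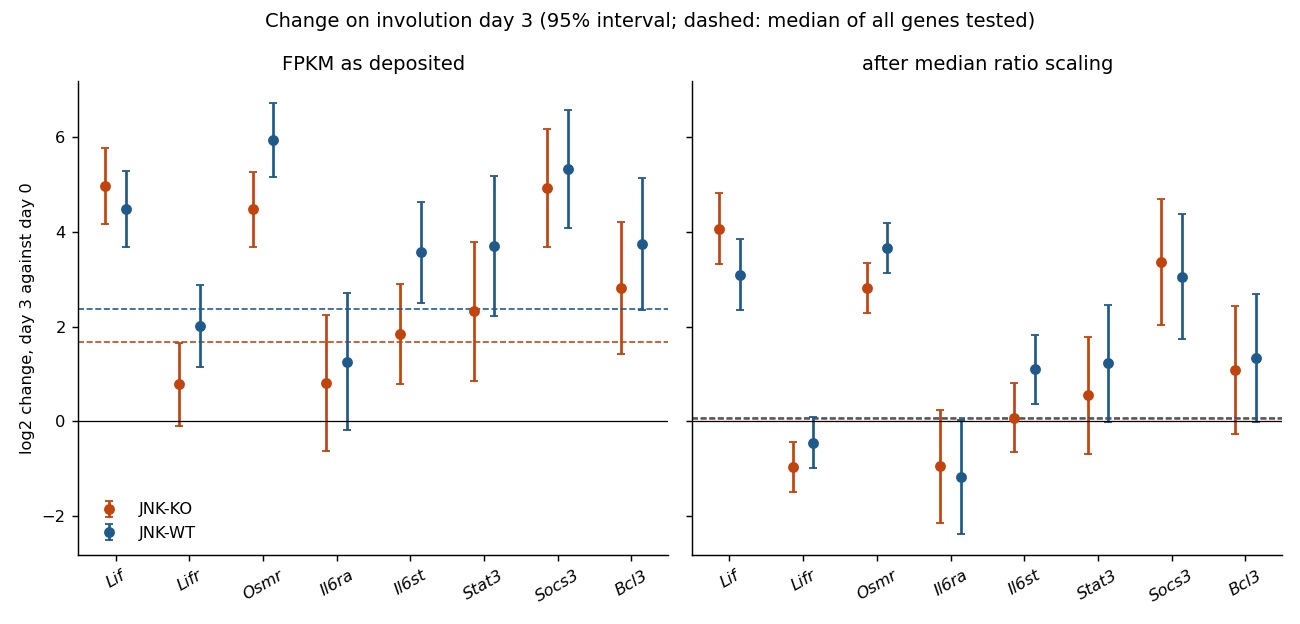
Log2 change on day 3 against day 0 of the 8 tested genes, in JNK-KO and JNK-WT glands, for FPKM as deposited and after median ratio scaling, with 95% intervals from limma. The dashed lines give the median over all genes tested (1.68 and 2.37 as deposited, 0.04 and 0.06 scaled), and Lif, Osmr and Socs3 lie above the lines with their whole intervals in both panels while Lifr and Il6ra do not.

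As deposited, 6 of the 8 tested genes rose in JNK-KO glands (Lif, Osmr, Il6st, Stat3, Socs3 and Bcl3), where 80% of all genes tested were called higher and 81.3% were called in either direction. In JNK-WT glands 7 of 8 rose, all but Il6ra, where 91.5% of all genes were called higher and 92.8% in either direction. These shares are near the background. After median ratio scaling 3 were called higher and 1 lower in JNK-KO glands (11.3% of all genes called higher, 9.87% lower), and 4 were called higher and none lower in JNK-WT glands (19.1% called higher, 16.4% lower). Lif, Osmr and Socs3 were called higher in both genotypes on both scales. The median change of the 8 genes after scaling was 0.81 in JNK-KO and 1.28 in JNK-WT glands.

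Sequences before the start of Socs3 and Lif, both called on both scales, are shown because a STAT3 or AP1 motif could be read in them. AP1 stands for the JUN and FOS factors that JNK acts on. The match to the AP1 pattern in Osmr lay after its start and is not printed. Promoter windows of RefSeq on GRCm38.p6, 250 bases before to 50 bases after a gene's start, were matched by symbol for 9 of the 10 genes (10 windows, Lifr having 2), and Osm was not matched. The STAT motif TTCNNNGAA, the same on both strands, occurred in the window of Socs3 alone, with its first base 154 bases before the start, and in 8.3% of all 32851 windows. The stricter form TTCCNGGAA, which overlaps the first, was in no window of these genes and in 1.15% of all. The pattern TGANTCA, the AP1 motif with any middle base and also the same on both strands, was in 7.81% of all windows. It began 228 bases before the start of Lif (TGACTCA), 249 before that of Il6 (TGAGTCA) and at base 4 after that of Osmr (TGATTCA). No binding was measured, and a match is a description of the letters. Capitals mark the STAT motif in Socs3 (chr11:117969452-117969616, minus strand, ending 86 bases before the start) and the AP1 motif in Lif (chr11:4257318-4257556, plus strand, ending 12 bases before the start), each read from 5′ to 3′ up to the first annotated exon that follows in the window. The stretch of Lif lies before its gene model, and that of Socs3 lies inside the deposited model of the gene, between exons of a noncoding transcript that starts further upstream, and before the start of its protein-coding transcript:
Socs3: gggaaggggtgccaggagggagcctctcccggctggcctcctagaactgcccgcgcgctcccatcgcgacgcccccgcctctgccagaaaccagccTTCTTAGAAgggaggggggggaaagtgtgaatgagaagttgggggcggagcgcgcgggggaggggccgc
Lif: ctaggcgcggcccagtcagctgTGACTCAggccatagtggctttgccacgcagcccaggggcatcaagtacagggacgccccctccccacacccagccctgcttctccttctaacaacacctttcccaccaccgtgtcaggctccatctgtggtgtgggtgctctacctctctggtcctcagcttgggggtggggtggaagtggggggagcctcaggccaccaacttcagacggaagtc

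JNK-KO and JNK-WT glands were compared on day 3 to ask whether loss of JNK in the epithelium changes this route during involution. None of the 8 tested genes passed the test by limma (6.16% of all genes tested were called, 0.544% higher and 5.62% lower), and 2 of 8, Lifr and Osmr, had an unadjusted p under 0.05, as did 24.9% of all genes. The log2 differences of the receptor chains were -1.02 for Lifr (95% interval -1.90 to -0.15, adjusted p = 0.146), -0.95 for Osmr (95% interval -1.74 to -0.16, adjusted p = 0.137) and -0.97 for Il6st (95% interval -2.03 to 0.10, adjusted p = 0.238), by limma. Every JNK-KO library held less of these 3 chains than any JNK-WT library of day 3, as was the case for 43.9% of all genes tested. Il6ra was higher in all 3 JNK-KO libraries than in any JNK-WT library, which 2.81% of all genes were. Its difference of 0.42 had an interval from -1.02 to 1.86 (adjusted p = 0.674 by limma). Without the library labelled JNK-WT day 0 library 1 that interval was 0.0008 to 0.84, and Il6ra was still not called (adjusted p = 0.120 by limma).

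For the other 4 genes the libraries of both genotypes overlapped on day 3, and none was called by limma. The differences were 0.46 for Lif (95% interval -0.34 to 1.27), -0.29 for Stat3 (-1.77 to 1.18), -0.02 for Socs3 (-1.27 to 1.22) and 0.29 for Bcl3 (-1.11 to 1.68). These intervals leave room for differences of more than 1 log2 unit for each of the 4 genes. For Stat3 this rested on the library labelled JNK-WT day 0 library 1, which enters the shared estimate of the spread. Without it the interval of Stat3 was -0.84 to 0.25, and those of Lif, Socs3 and Bcl3 still reached beyond 1 log2 unit. The median difference of the 8 genes was -0.16, beside -0.48 over all genes tested.

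Some alternatives called the receptor chains. The library labelled JNK-WT day 0 library 1, of another day, enters the shared estimate of the spread, and without it Lifr (adjusted p = 0.0447), Osmr (adjusted p = 0.0325) and Il6st (adjusted p = 0.0356) were called lower in JNK-KO glands at the same differences, by limma, with 17.8% of all genes called lower. With a pseudocount of 1 Osmr was called lower (-0.91, adjusted p = 0.0228 by limma), as were 16.3% of all genes. With weights per library Lif was called higher (1.01, adjusted p = 0.0120), and Lifr (-0.66, adjusted p = 0.0199), Osmr (-0.67, adjusted p = 0.0181) and Il6st (-0.77, adjusted p = 0.0169) were called lower, by limma, with 4.31% of all genes called higher and 29% lower. After median ratio scaling the differences were 0.92 for Lif, -0.52 for Lifr, -0.44 for Osmr, 0.91 for Il6ra, -0.46 for Il6st, 0.21 for Stat3, 0.47 for Socs3 and 0.78 for Bcl3, and none was called (0.455% of all genes were). The sign of the differences of Stat3 and Socs3 thus turned with the scaling. With library 1 left out as well, Il6ra was called higher in JNK-KO glands, by 0.91 (adjusted p = 0.0225 by limma), with 3.31% of all genes called higher.

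**Figure D4:**
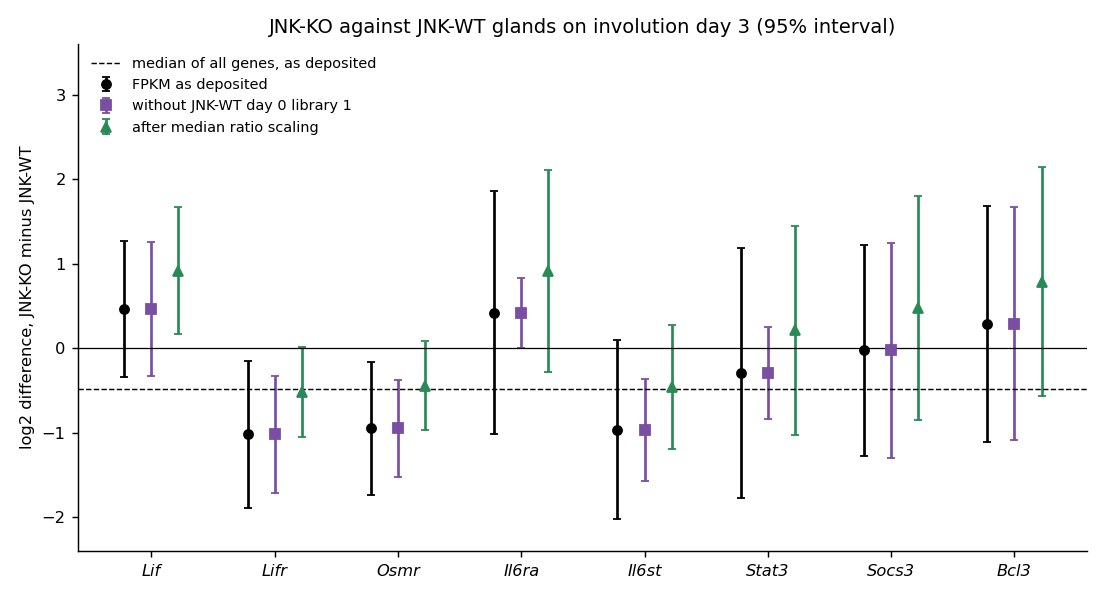
Log2 difference between JNK-KO and JNK-WT glands on day 3 for the 8 tested genes, with 95% intervals from limma, for FPKM as deposited, without the library labelled JNK-WT day 0 library 1 and after median ratio scaling. The dashed line is the median of all genes as deposited (-0.48), and Lifr, Osmr and Il6st lie below it as deposited while Lif, Il6ra, Stat3, Socs3 and Bcl3 lie above it.

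On day 0 none of the 8 genes differed between the genotypes by limma, and none had an unadjusted p under 0.05 (0.0138% of all genes were called, and 3.1% had such a p). The libraries of all 10 genes overlapped, while 7.89% of all genes tested had none that did. The largest differences were 1.22 for Bcl3 (95% interval -0.18 to 2.61) and 1.10 for Stat3 (95% interval -0.38 to 2.57), each with an adjusted p of 0.810. Without JNK-KO day 0 library 1 the difference of Bcl3 was 0.35. Without the library labelled JNK-WT day 0 library 1 the difference of Stat3 was 0.02 (95% interval -0.59 to 0.63) and that of Il6ra was -0.21, in place of 0.87.

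The difference of the day 3 changes, JNK-KO minus JNK-WT, asks whether the genes responded less in 1 genotype. It was called for none of the 8 genes by limma (0.0138% of all genes were called), and 2 of 8, Osmr and Il6st, had an unadjusted p under 0.05, as did 18.6% of all genes. The difference was -1.47 for Osmr (95% interval -2.58 to -0.35, adjusted p = 0.178), -1.73 for Il6st (95% interval -3.23 to -0.23, adjusted p = 0.225), -1.23 for Lifr (95% interval -2.47 to 0.00, adjusted p = 0.270) and 0.50 for Lif (95% interval -0.64 to 1.63, adjusted p = 0.545), beside a median of -0.67 over all genes. For Stat3 it was -1.39 (95% interval -3.48 to 0.70, adjusted p = 0.388 by limma), for Bcl3 -0.93, for Il6ra -0.45 and for Socs3 -0.39. Without the library labelled JNK-WT day 0 library 1 it was -1.10 for Osmr, -1.06 for Il6st and -0.31 for Stat3. Median ratio scaling with no filter gave -0.84 for Osmr, -1.02 for Il6st, -0.52 for Lifr, -0.68 for Stat3 and 0.97 for Lif. The same scaling turned the sign for Il6ra (0.23) and Socs3 (0.31), and no gene was called.

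Other genes of the same route were counted from lists written with earlier results of these data known. Of 8 cytokines that signal through GP130, 4 were tested (Lif, Cntf, Ctf1 and Clcf1), and all 4 rose in both genotypes as deposited, where 80% of all genes were called higher in JNK-KO and 91.5% in JNK-WT glands. Ctf1, which encodes cardiotrophin 1, rose by 2.38 in JNK-KO glands (adjusted p = 0.000135 by limma), and Clcf1, a partner of the CNTF receptor, rose by 2.85 in JNK-WT glands (adjusted p = 8.63e-05 by limma). After scaling only Lif was called in JNK-KO glands and only Lif and Clcf1 in JNK-WT glands. The median of the 4 genes as deposited was 2.29 in JNK-KO and 2.68 in JNK-WT glands.

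All 8 receptor chains of the family were tested, and 6 rose in each genotype as deposited, beside the same 80% and 91.5% of all genes. Cntfr, the chain that binds ciliary neurotrophic factor, had 15.02 ± 8.33 FPKM in JNK-KO glands of day 3 (SD, n = 3) against 0.153 ± 0.118 FPKM in JNK-KO glands of day 0, and 7.09 ± 0.543 FPKM in JNK-WT glands of day 3 against 0.0966 ± 0.0847 FPKM in JNK-WT glands of day 0. It rose by 5.85 in JNK-KO (adjusted p = 6.04e-06) and by 5.30 in JNK-WT glands (adjusted p = 2.80e-06) by limma, and after scaling by 4.44 (adjusted p = 0.000391) and 3.599 (adjusted p = 0.000827). After scaling Osmr and Cntfr rose and Lifr fell in JNK-KO glands, and Osmr, Il6st, Cntfr and Il27ra rose in JNK-WT glands.

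Of 11 JAK kinases and STATs, 10 were tested and all 10 rose in both genotypes as deposited (80% and 91.5% of all genes did), with a median of 2.29 in JNK-KO and 3.02 in JNK-WT glands beside 1.68 and 2.37 over all genes. As deposited, Stat2, an interferon-response factor, rose by 3.18 (adjusted p = 0.000151 by limma) and Jak3, a kinase known from lymphoid cells, by 2.98 (adjusted p = 0.000226 by limma) in JNK-KO glands. Jak3 rose by 3.95 in JNK-WT glands (adjusted p = 1.51e-05 by limma). After scaling Stat2 rose by 1.46 in JNK-KO glands (adjusted p = 0.0255 by limma) and Jak3 by 1.80 in JNK-WT glands (adjusted p = 0.0105 by limma).

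Among 13 inhibitors of the pathway as deposited, 11 were called higher and 1 lower in JNK-KO glands (80% of all genes were called higher and 1.37% lower), and all 13 were called higher in JNK-WT glands (91.5% of all genes were). After Socs3 the largest rise was that of Socs5 in JNK-KO glands (3.15) and of Socs1 in JNK-WT glands (3.71), and both encode further members of the SOCS family. The one that fell was Socs2, an inhibitor known for its part in growth hormone and prolactin signalling, which had 3.21 ± 0.387 FPKM in JNK-KO glands of day 3 (SD, n = 3) against 5.82 ± 0.665 FPKM in JNK-KO glands of day 0 (log2 change -0.84, adjusted p = 0.00580 by limma). In JNK-WT glands it had 15.3 ± 1.95 FPKM on day 3 against 5.70 ± 1.07 FPKM on day 0 (log2 change 1.42, adjusted p = 0.000104 by limma). It was also lower in JNK-KO than in JNK-WT glands on day 3, by -2.22 (adjusted p = 0.00209 by limma) and after scaling by -1.70 (adjusted p = 0.00961 by limma). The difference of its day 3 changes was -2.26 (adjusted p = 0.0612 by limma) and missed the threshold. Ptpn2, a phosphatase that acts on JAKs and STATs, was lower in JNK-KO glands of day 3 by -0.98 (adjusted p = 0.0300 by limma), a call that scaling ended (-0.48, adjusted p = 0.366). After scaling Socs2 fell in both genotypes, by 2.57 in JNK-KO and by 1.06 in JNK-WT glands.

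Of 22 STAT3 target genes, which include Osmr, Socs3 and Bcl3, 20 rose in JNK-KO and 22 in JNK-WT glands as deposited, where 80% and 91.5% of all genes did. After scaling 12 were called higher and 1 lower in JNK-KO glands (11.3% and 9.87% of all genes), and 12 higher and 3 lower in JNK-WT glands (19.1% and 16.4% of all genes), with medians of 1.29 and 1.34 beside 0.04 and 0.06 over all genes. Lrg1, which encodes a secreted acute phase glycoprotein, had 1141 ± 204 FPKM in JNK-KO glands of day 3 (SD, n = 3) and 429.6 ± 82.8 FPKM in JNK-WT glands of day 3. Igfbp5, which encodes a binding protein that sequesters insulin-like growth factors, had 539 ± 123 FPKM and 872 ± 73.3 FPKM in the same groups. Both rose by more than any other gene of the list after scaling, Lrg1 by 5.99 in JNK-KO and 5.75 in JNK-WT glands and Igfbp5 by 4.84 and 6.43. Hif1a, whose protein responds to low oxygen, fell by 1.43 in JNK-KO and by 1.25 in JNK-WT glands after scaling.

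Between the genotypes on day 3, 3 of the 22 STAT3 targets were called, all lower in JNK-KO glands: Cd14 (-1.51, adjusted p = 0.0177), Ctsb (-1.39, adjusted p = 0.0231) and Ctsl (-1.38, adjusted p = 0.0189), by limma, beside the 5.62% of all genes called lower. Over the 22 targets, 7 differences were positive and 15 negative, with a median of -0.39 beside -0.48 over all genes. Their summed FPKM was 12271 to 15571 in JNK-KO and 9099 to 9849 in JNK-WT libraries of day 3. After scaling it was 6362 to 11105 and 3461 to 4181, and the highest genes weigh most in such sums. Cd14 encodes a lipopolysaccharide co-receptor of myeloid and other cells, and Ctsb and Ctsl encode lysosomal cathepsins. No target was called after scaling, where the adjusted p was 0.104 for Cd14 (-1.0005), 0.0865 for Ctsb (-0.89) and 0.0907 for Ctsl (-0.88), by limma. As deposited, the macrophage marker sum given above was lower in each JNK-KO library of day 3 than in any JNK-WT library of that day. Of all genes tested, 43.9% were lower without overlap. After scaling the macrophage sums overlapped, at 176 to 319 FPKM in JNK-KO and 283 to 580 FPKM in JNK-WT libraries. The part of this sum in the differences of Cd14, Ctsb and Ctsl was not tested. As deposited, the neutrophil marker sum was 118 to 378 FPKM in JNK-KO and 20.8 to 26.4 FPKM in JNK-WT libraries of day 3. S100a8 made up 117 to 371 FPKM of that sum in JNK-KO and 15.9 to 21.3 FPKM in JNK-WT libraries, while Ly6g was listed at 0 in all 12 libraries.

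**Figure D5:**
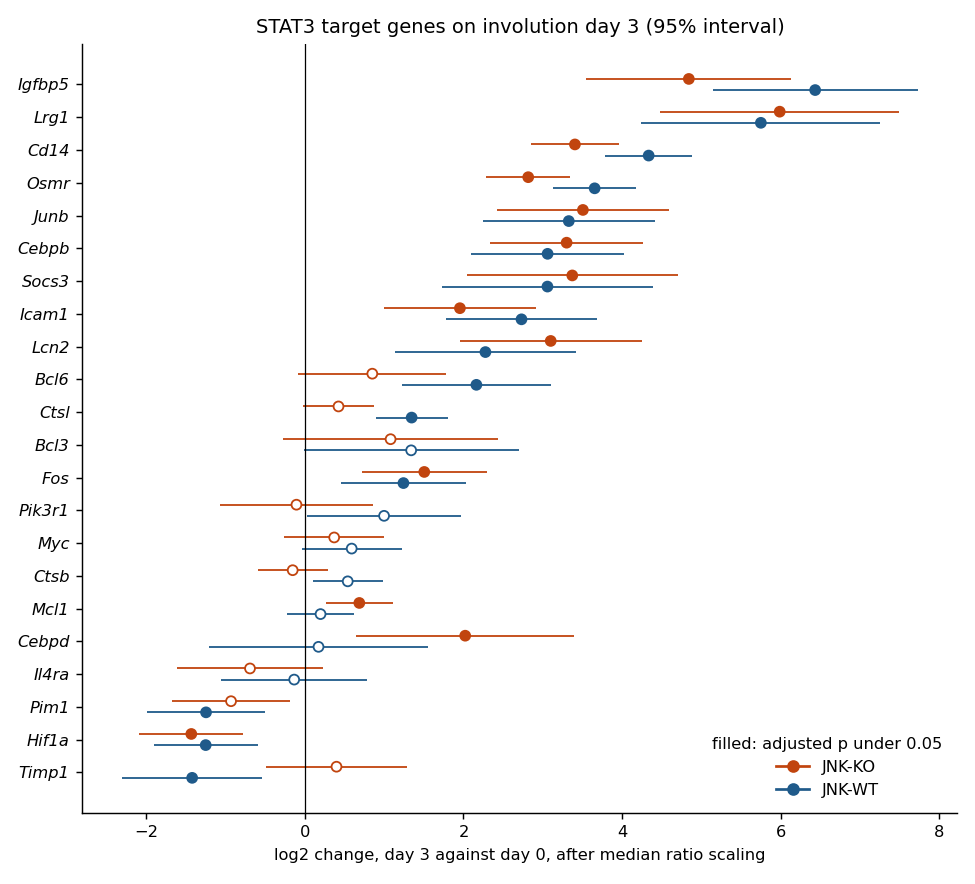
Log2 change on day 3 against day 0 after median ratio scaling of the 22 STAT3 target genes, in JNK-KO and JNK-WT glands, with 95% intervals from limma and filled points for an adjusted p under 0.05. Igfbp5, Lrg1, Cd14, Osmr, Junb, Cebpb, Socs3, Icam1, Lcn2 and Fos were called higher in both genotypes, and Hif1a was called lower in both.

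All 5 NF-kB subunits, of which the products of Nfkb1 and Nfkb2 give the p50 and p52 that BCL3 binds, rose in both genotypes as deposited (80% and 91.5% of all genes did), with a median of 2.62 in JNK-KO and 3.64 in JNK-WT glands. Relb rose by 3.24 in JNK-KO (adjusted p = 7.95e-05) and by 4.76 in JNK-WT glands (adjusted p = 3.48e-06), and Nfkb2 by 2.98 (adjusted p = 0.000282) and 4.04 (adjusted p = 1.65e-05), by limma. After scaling Relb alone was called in JNK-KO glands, at 1.57 (adjusted p = 0.0291 by limma), and Nfkb2, Rela and Relb in JNK-WT glands. None differed between the genotypes on day 3, with differences from -0.58 to -0.14 as deposited.

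The genes whose profile over the 12 scaled libraries came closest to that of Socs3, by the root mean square difference of centred log2 values over 14183 genes, were Junb (0.48), Cebpb (0.50) and Hmox1 (0.53), where the median gene was at 1.81. Junb and Cebpb encode transcription factors and are on the list of STAT3 targets, and Hmox1 encodes heme oxygenase 1. The closest to Osmr were Isyna1 (0.25), Nfe2l3 (0.32) and Lrfn4 (0.36), with the median gene at 1.71. The closest to Stat3 were Arhgef10l (0.18), Afap1 (0.24) and Gm10401 (0.25), with the median gene at 1.01. These values describe likeness over libraries of 4 groups, and for Socs3 and Osmr they rest in large part on the difference between the days. Scaled Stat3 was at 5.71 FPKM in the library labelled JNK-WT day 0 library 1, against 24.0 to 59.9 FPKM in all others. Likeness to Stat3 therefore also reflects that low library.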

How the data were processed

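RNA from pieces of mammary glands was sequenced in 12 libraries, 3 in each of 4 groups. Per the authors, reads were trimmed, aligned to GRCm38 with Bowtie2 and TopHat2 2.0.14, and turned into the deposited FPKM of each library with Cufflinks 2.2.1. The table also holds fold changes, p-values and q-values from Cuffdiff, which were not used. The columns were matched to groups by name, but not to single labelled replicates. FPKM keep no counts, so depth per library is unknown and no interval for counting error is given, and p-values measure the spread between these libraries.

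Gene models with at least 0.5 FPKM in at least 3 libraries (14512 of 37756, of which 2 carry no FPKM) were tested as log2(FPKM + 0.1) with limma 3.58.1 (R version 4.3.3), using 4 group means, a trend of variance on mean level, 8 residual and 4.03 prior degrees of freedom, two-sided tests and Benjamini-Hochberg adjustment per comparison. A gene was called at an adjusted p under 0.05. A fold on this scale understates changes of low genes. Alternatives changed the pseudocount (1 and 0.01), the filter (none, and 1 FPKM), the scaling (median ratio, 75th percentile), the trend, weights per library and the groups in the fit, and left out each library in turn. The fit was tested on simulated data. The genes, lists and tests were chosen with earlier results of these data known. Named were the 10 genes, per list and comparison up to 2 called genes in each direction with the largest change, the 3 genes most like Socs3, Stat3 and Osmr, and Mapk8 and Mapk9. Some genes of the lists are not reported here. Other genes named were chosen after their values were seen. Promoters are from RefSeq (GRCm38.p6) and overlaps from GENCODE M21.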

Additional observations from a re-analysis of the deposited data

How the results depend on the processing

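No paired analysis was possible because the deposited columns carry numbers of their own which do not match those of the labelled replicates. For the comparison of JNK-KO with JNK-WT glands on day 3, where 0 of 8 genes were called, 1 was called with a pseudocount of 1 (Osmr, -0.91, adjusted p = 0.0228 by limma), 4 with weights per library, 1 after median ratio scaling without the library labelled JNK-WT day 0 library 1, and 0 to 3 with 1 library left out. On day 0 and for the difference of the day 3 changes the count stayed at 0 with each library left out. For day 3 against day 0 the count was 7 of 8 in JNK-WT glands (7 to 8 with 1 library left out), beside 92.8% of all genes. It was 6 of 8 in JNK-KO glands (6 to 8), beside 81.3% of all genes. After median ratio scaling 4 were called in each genotype, and likewise 4 after 75th percentile scaling. With either scaling all 4 were higher in JNK-WT glands, beside 35.5% of all genes called. In JNK-KO glands 3 were higher and 1 lower, beside 21.1% of all genes called. The change of Lifr turned from positive to negative with the scaling. In JNK-WT glands it was -0.46 by median ratio (adjusted p = 0.167 by limma) and -0.27 by 75th percentile (adjusted p = 0.461 by limma). It was -0.59 by median ratio without the library labelled JNK-WT day 0 library 1 (adjusted p = 0.0627 by limma) and -0.46 by median ratio with no filter (adjusted p = 0.198 by limma). None of these was called. In JNK-KO glands the change of Lifr was 0.78 as deposited, which was not called (adjusted p = 0.0899 by limma). With the same settings in turn, the change of Lifr in JNK-KO glands was -0.97, -0.91, -0.97 and -0.97, each called by limma. That of Il6ra, called in neither genotype as deposited, was -1.18 in JNK-WT and -0.95 in JNK-KO glands by median ratio (adjusted p = 0.113 and 0.243 by limma) and -0.997 and -0.89 by 75th percentile (adjusted p = 0.200 and 0.306 by limma), none of them called. It was called, at -2.02 and -0.95, by median ratio without the library labelled JNK-WT day 0 library 1 (adjusted p = 4.65e-05 and 0.00193 by limma). Scaling moves the median of all genes by construction, and beyond that the cause was not tested. Leaving out the library labelled JNK-KO day 0 library 3 kept the direction and the call of 39 of 40 gene results, all but the day 0 difference of Lif, which was -0.03 and became 0.04. Over the 40 gene results (8 genes in 5 comparisons) and 912 values, leaving out 1 library kept direction and call in 462, gained a call in 8 and moved an uncalled value in 10, and the other settings kept them in 362, lost a call in 20, gained one in 9, reversed 10 and moved an uncalled value in 31. FPKM without counts give no depth, so values near 0, such as those of Osm, Il6 and Lif on day 0, cannot be given a counting error.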
